A study of Mus musculus with 12 samples.

Results

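The retinoid binding and metabolism genes described here are 9 genes of the 55862 in the deposited expression table: Stra6, Crabp1, Crabp2, Aldh1a1, Aldh1a2, Aldh1a3, Dhrs3, Cyp26b1 and Rarb. They were chosen by their measured levels in these samples, so their levels and differences are given as a description, with no test. All 9 were found in the table by gene name, and all 9 have values in each of the 4 groups. Retinoic acid is the active form of vitamin A and guides patterning and neuronal differentiation in the developing brain. Cells take up retinol, oxidise it through retinaldehyde to retinoic acid, carry the acid on small binding proteins and break it down again, while the acid that reaches the nucleus switches genes on through receptor pairs of the RAR and RXR families. Several genes of this pathway are themselves switched on by retinoic acid and are widely used as reporters of its action.

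RNA of 12 samples was sequenced, 3 per group, to compare astrocytes before and after sphere culture with brain-derived neural precursor cells (NPCs). ASTs, the negative control, were primary astrocytes from the cerebral cortex of C57BL/6 mice at postnatal day 1 to 2, with the meninges removed, grown in medium with serum and taken at day 0 of incubation. A-iSCs were such astrocytes kept for 5 days as spheres on agarose-coated dishes, while the positive controls were cells of dissociated tissue, with the subependymal zone of P56 adults giving P56-NPCs and the hippocampus of P0 pups giving P0-NPCs, both from mice given as C57BL/6J. The P56 cells were resuspended in culture medium, and whether either NPC group was cultured before RNA was taken is not stated. No transgene or sorting step is given for any group, and the labels do not say whether the 3 samples of a group came from separate animals or cultures, so p-values measure only the spread between these samples. The NPC groups therefore differ from the cultures in age, region, dissociation and the strain name given at once, and these cannot be told apart.

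Levels are in FPKM, the fragments of a gene corrected for its length and for a library size, and differences are between means of log2(FPKM + 1), which understates the change of genes with low levels. The library size behind the values was not the fragment total of the sample. It was 0.744 to 0.779 times that total in P56-NPCs and 0.941 to 0.985 times in ASTs. In A-iSCs it was 1.10 to 1.15 times and in P0-NPCs 1.15 to 1.22 times. Differences between groups include this factor, and scaling by library size alone takes it out. The libraries held 17077780 to 24452419 fragments, and 3 fragments of a gene of 1 kilobase corresponded to 0.103 to 0.187 FPKM, counting error only. AST replicate 2 and A-iSC replicate 3 stood apart from the other samples of their groups, with a chi-square per degree of freedom of 39.5 and 40.9 for the first and 95.1 and 75.5 for the second, against 2.51 and 12.3 between the other samples, and the differences between A-iSCs and ASTs in Crabp1, Crabp2, Aldh1a1, Dhrs3, Cyp26b1, Rarb and Fabp5 are given without one or both of them as well. Mitochondrial genes took 16.5% to 17.6% of fragments in P56-NPCs and 2.94% to 7.03% elsewhere. Other scalings moved the median log2 fold change of all tested genes by more than 0.1, from -0.06 to 0.13 for A-iSCs against ASTs with upper-quartile scaling and from 0.03 to 0.49 for A-iSCs against P56-NPCs with scaling by library size alone.

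Promoter sequence is shown for 4 members, Rarb because it holds the only repeat found at any of the 3 spacings, Crabp1 and Cyp26b1 as genes with lower levels in A-iSCs than in ASTs, and Dhrs3 as the gene with the opposite difference. The RefSeq promoter table, on build GRCm38.p6, held 7 of the 9 members in 13 windows, all but Crabp2 and Aldh1a3. The 250 bases before each start site were searched on both strands for direct repeats of the receptor core word AGGTCA or of its variant forms (GGTTCA being the first, AGTTCA the second and GGGTCA the last) spaced by 5, 2 or 1 bases, for the GC box GGGCGG and for the TATA box TATAAA. In Rarb, at chr14:16575507-16575536 on the minus strand, capitals mark both core words of a repeat spaced by 5 bases, and all 30 bases shown lie in an exon of the GENCODE M21 annotation. In Crabp1 at chr9:54764498-54764747 on the plus strand, in Cyp26b1 at chr6:84593909-84594060 on the minus strand and in Dhrs3 at chr4:144892577-144892826 on the plus strand, capitals mark GGGCGG, its reverse complement and TATAAA, and no base shown lies in an annotated exon.
Rarb: cgggaagGGTTCAccgaaAGTTCActcgca
Crabp1: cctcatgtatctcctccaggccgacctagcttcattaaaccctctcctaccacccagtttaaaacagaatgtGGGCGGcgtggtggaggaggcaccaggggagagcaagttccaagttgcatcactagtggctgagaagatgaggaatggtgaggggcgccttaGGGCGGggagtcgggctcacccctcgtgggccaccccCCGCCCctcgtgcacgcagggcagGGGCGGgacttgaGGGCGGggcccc
Cyp26b1: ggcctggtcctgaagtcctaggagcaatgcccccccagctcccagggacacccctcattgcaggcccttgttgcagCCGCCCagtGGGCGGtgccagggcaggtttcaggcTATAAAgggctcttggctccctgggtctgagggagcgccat
Dhrs3: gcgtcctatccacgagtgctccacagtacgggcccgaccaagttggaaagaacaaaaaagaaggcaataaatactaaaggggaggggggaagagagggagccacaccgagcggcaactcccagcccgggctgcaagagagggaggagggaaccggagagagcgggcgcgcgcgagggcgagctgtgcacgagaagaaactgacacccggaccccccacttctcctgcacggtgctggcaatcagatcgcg

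The Rarb repeat lay at positions -53 to -37 from its RefSeq start site, and a repeat of these core words at that spacing was found in 29 of 32851 promoters (0.0883%). Crabp1 held 5 GC boxes, whose first bases lie at -178, -86, -49, -25 and -12 from its start, and 32.7% of all promoters held at least 1. Cyp26b1 held 3 GC boxes, of which the pair in the bases shown begins at -174 and -165 from its RefSeq start, together with a TATAAA from -139, a word present in 12.4% of promoters. The Dhrs3 window shown had none of the searched words, with 61.6% G and C against a median of 52.4% over all promoters. The Dhrs3 windows not shown had none either, with 46.8% and 44.8% G and C. The Aldh1a2 window had 77.6% G and C and 40 CpG sites, above the upper quartile of 61.2% and 16 sites over all promoters. A match is a description of letters, and a window without one says only that the letters are not there.

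The plot of member levels shows the main pattern, in which each group had the highest level of at least 1 member. ASTs had the highest levels of Crabp1, Aldh1a3 and Cyp26b1, A-iSCs had the highest level of Dhrs3, P56-NPCs of Aldh1a1, and P0-NPCs of Stra6 and Aldh1a2. Crabp2 was high in both ASTs and P0-NPCs, and Rarb was low in all groups.

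**Figure D1:**
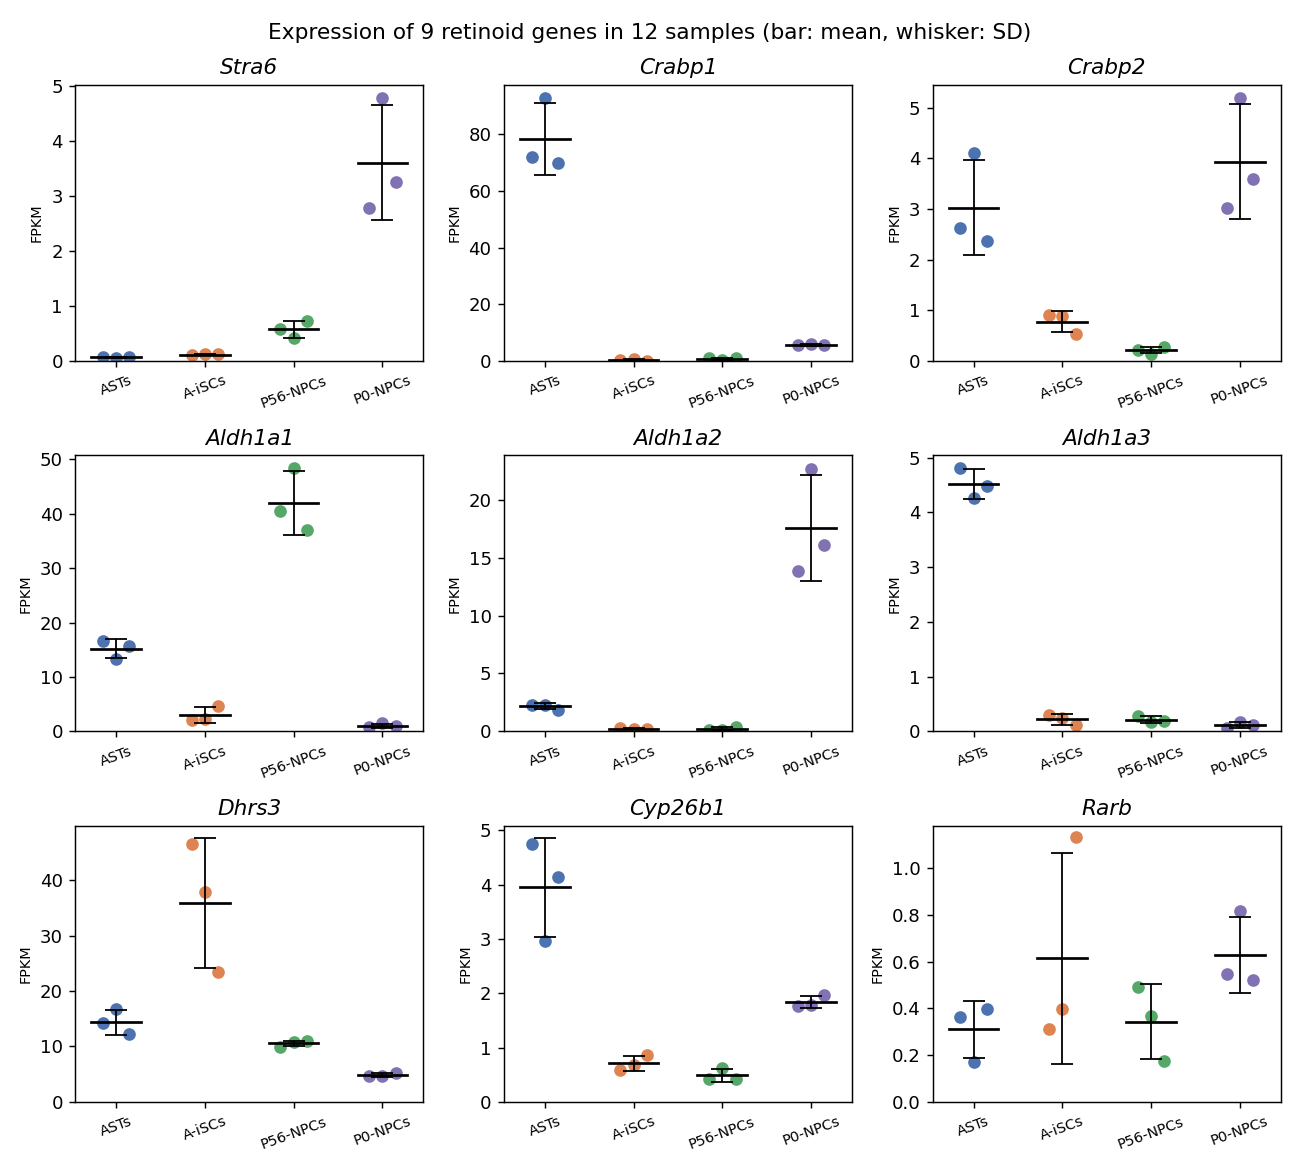
Expression of the 9 members in FPKM (vertical axis, a separate linear scale from 0 for each gene) in the 3 samples of each group (horizontal axis). Points are samples, bars are means and whiskers are SD. Crabp1 stands between 69.9 and 92.8 FPKM in ASTs and below 0.5 FPKM in A-iSCs.

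Uptake was represented by Stra6, the membrane receptor that takes retinol from its carrier in the blood (chr9:58063788-58153996, plus strand). Stra6 measured 0.0716, 0.0592 and 0.0647 FPKM in ASTs and 0.102, 0.123 and 0.115 FPKM in A-iSCs. It measured 0.583, 0.417 and 0.729 FPKM in P56-NPCs and 2.79, 4.79 and 3.25 FPKM in P0-NPCs. No neighbouring groups in this order overlapped, and P0-NPCs exceeded ASTs 55.4-fold. The values in ASTs rest on 7 fragments per sample and those in A-iSCs on 12 to 18, against 372 to 813 in P0-NPCs. The difference between A-iSCs and ASTs was 0.06 ± 0.01 on the log2 scale (SE, n = 3 per group), so both cultures were near the lower end of what these libraries could measure. In rank, Stra6 stood above 14.2% of the protein-coding genes with a value above 0 in ASTs and above 53.0% of them in P0-NPCs.

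The cellular retinoic acid binding proteins carry the acid within the cell, Crabp1 in the cytoplasm, where it is linked to breakdown of the acid, and Crabp2 towards the nuclear receptors. Crabp1 (chr9:54764748-54773110, plus strand) measured 71.9, 92.8 and 69.9 FPKM in ASTs and 0.309, 0.472 and 0.0930 FPKM in A-iSCs. This was the widest difference among the members, 268-fold in mean FPKM and -5.94 ± 0.18 on the log2 scale, with no overlap. The A-iSC values rest on 5, 9 and 2 fragments, against 967, 1510 and 1041 in ASTs, and the last of them lies below its floor of 0.140 FPKM. Without A-iSC replicate 3 the log2 difference was -5.82, and without AST replicate 2 it was -5.81. Crabp1 ranked 652 among 16926 protein-coding genes above 0 in ASTs and 13279 among 17254 in A-iSCs.

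In the NPC groups, Crabp1 measured 0.862, 0.388 and 0.908 FPKM in P56-NPCs and 5.50, 6.08 and 5.57 FPKM in P0-NPCs. P0-NPCs stood clear of both A-iSCs and P56-NPCs, with a mean 19.6-fold above the first and 7.95-fold above the second. A-iSCs and P56-NPCs overlapped, and their log2 difference was -0.41 ± 0.19.

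Crabp2 (chr3:87948666-87953376, plus strand) measured 2.62, 4.10 and 2.36 FPKM in ASTs and 0.901, 0.891 and 0.536 FPKM in A-iSCs. It measured 0.218, 0.141 and 0.276 FPKM in P56-NPCs and 3.01, 5.20 and 3.60 FPKM in P0-NPCs. ASTs and P0-NPCs overlapped at the top, A-iSCs lay below both, and P56-NPCs were lowest, with 3 to 6 fragments per sample. A-iSCs were below ASTs by 3.90-fold in mean FPKM and above P56-NPCs by 3.67-fold. The log2 difference from ASTs was -1.16 ± 0.21, -0.98 without AST replicate 2 and -1.06 without A-iSC replicate 3.

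Because both binding protein genes differed by group, so did their balance. The summed level of the pair was 81.2 ± 13.7 FPKM in ASTs, 1.07 ± 0.39 in A-iSCs, 0.931 ± 0.351 in P56-NPCs and 9.65 ± 1.44 in P0-NPCs (SD, n = 3). Crabp1 made up 96.3% ± 0.5 of that sum in ASTs, 14.8% to 34.6% in the A-iSC samples, 76.6% ± 3.3 in P56-NPCs and 59.8% ± 5.4 in P0-NPCs. A-iSCs were thus the one group of the 4 in which Crabp2 had the larger level per length in every sample, 65.4% to 85.2% of the sum. The shares in A-iSCs and P56-NPCs rest on few fragments. Per sample these were 2 to 9 for Crabp1 and 19 to 28 for Crabp2 in A-iSCs, and 5 to 12 and 3 to 6 in P56-NPCs.

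The enzymes of the Aldh1a family carry out the last step of synthesis, the oxidation of retinaldehyde to retinoic acid. Aldh1a1 (chr19:20492715-20643465, plus strand) measured 16.6, 13.2 and 15.7 FPKM in ASTs and 2.08, 2.29 and 4.60 FPKM in A-iSCs. It measured 40.6, 48.3 and 36.9 FPKM in P56-NPCs and 0.717, 1.46 and 0.904 FPKM in P0-NPCs. The order P56-NPCs, ASTs, A-iSCs, P0-NPCs held with no overlap between neighbours. A-iSCs were 5.08-fold below ASTs in mean FPKM, a log2 difference of -2.07 ± 0.29, which was -2.34 without A-iSC replicate 3, the sample with the highest level of its group. A-iSCs were below P56-NPCs by a log2 difference of -3.47 ± 0.29, and P56-NPCs exceeded 40.8-fold the P0-NPCs, where Aldh1a1 had 81 to 210 fragments per sample.

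Aldh1a2 (chr9:71215789-71296243, plus strand) is the enzyme that makes most retinoic acid in the early embryo and is known from the meninges. It measured 2.32, 2.29 and 1.88 FPKM in ASTs and 0.263, 0.167 and 0.214 FPKM in A-iSCs. It measured 0.0763, 0.110 and 0.402 FPKM in P56-NPCs and 13.9, 22.7 and 16.1 FPKM in P0-NPCs. P0-NPCs stood above every other sample, ASTs came next, and A-iSCs and P56-NPCs overlapped at the bottom with 3 to 15 fragments per sample. P0-NPCs exceeded ASTs 8.13-fold and A-iSCs 81.8-fold, and ASTs exceeded A-iSCs 10.1-fold, a log2 difference of -1.38 ± 0.07.

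Aldh1a3 (chr7:66390890-66427517, minus strand), known from the developing eye and olfactory region, measured 4.81, 4.27 and 4.48 FPKM in ASTs. The other groups lay at or below 0.290 FPKM, with 0.290, 0.246 and 0.113 FPKM in A-iSCs. It measured 0.287, 0.175 and 0.184 FPKM in P56-NPCs and 0.0663, 0.179 and 0.118 FPKM in P0-NPCs. ASTs stood apart from all 9 other samples, and the other 3 groups overlapped with their neighbours. A-iSCs were 20.9-fold below ASTs, a log2 difference of -2.18 ± 0.08.

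Summed over the family, the level was 21.9 ± 1.99 FPKM in ASTs, 3.42 ± 1.30 in A-iSCs, 42.4 ± 5.69 in P56-NPCs and 18.7 ± 5.04 in P0-NPCs (SD, n = 3). ASTs and P0-NPCs had overlapping sums made of different genes. Aldh1a1 supplied 69.4% ± 2.2 of the sum in ASTs, 85.7% ± 7.2 in A-iSCs and 99.0% ± 0.5 in P56-NPCs, but 5.39% ± 0.56 in P0-NPCs. Aldh1a2 supplied 94.0% ± 0.7 in P0-NPCs, 9.94% ± 1.52 in ASTs and 6.84% ± 2.88 in A-iSCs. Aldh1a3 supplied 20.7% ± 0.8 in ASTs and 7.47% ± 4.58 in A-iSCs, and its share was below 1% in each NPC sample.

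**Figure D2:**
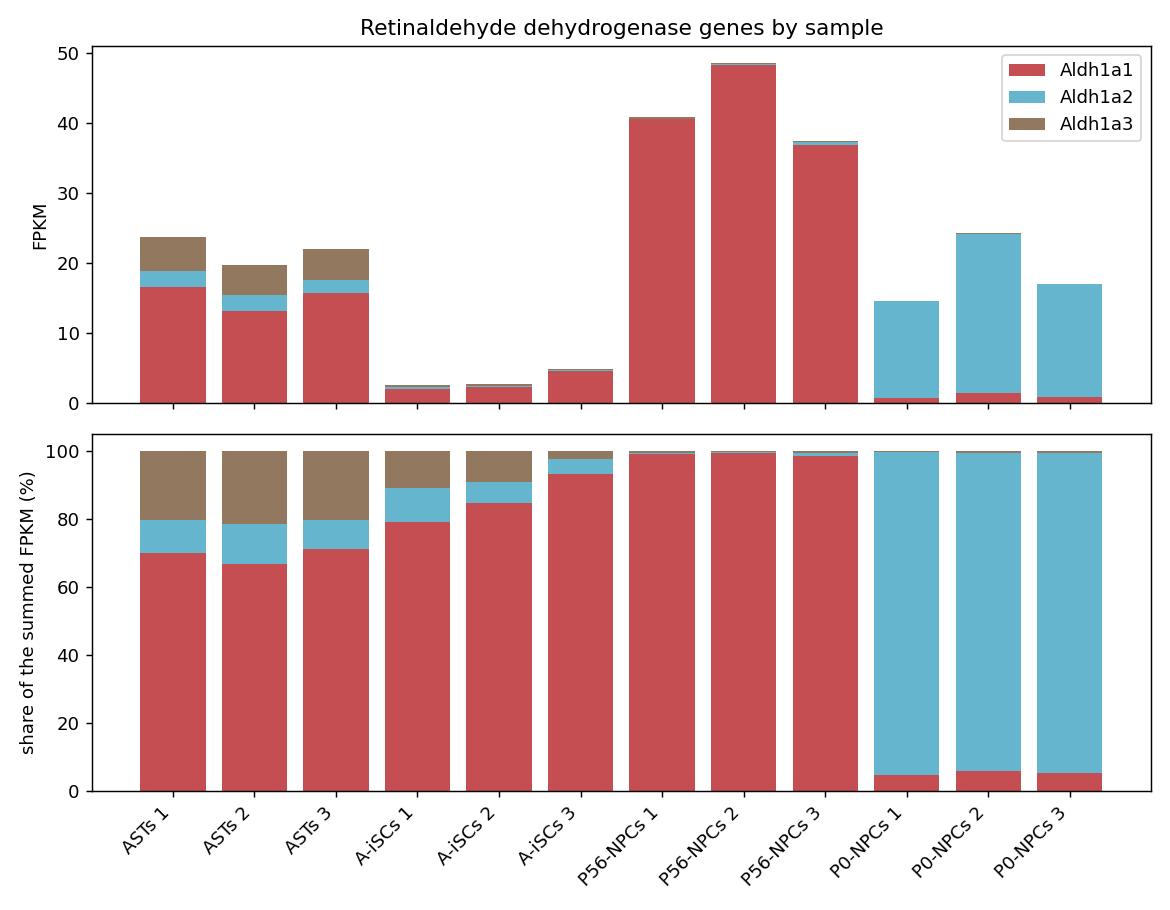
Levels of the 3 Aldh1a genes in each of the 12 samples, stacked in FPKM (upper panel) and as a share of their summed FPKM in percent (lower panel). A-iSC samples have sums of 2.63 to 4.93 FPKM, the lowest of the 4 groups, and in P0-NPCs 93.3% to 94.7% of the sum is Aldh1a2.

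Dhrs3 encodes a reductase that turns retinaldehyde back into retinol and so works against synthesis (chr4:144892827-144928209, plus strand). It measured 14.2, 16.7 and 12.2 FPKM in ASTs and 46.6, 37.8 and 23.4 FPKM in A-iSCs. It measured 9.96, 10.7 and 11.0 FPKM in P56-NPCs and 4.67, 4.68 and 5.20 FPKM in P0-NPCs. A-iSCs were the highest group with no overlap, although their samples ran from 23.4 to 46.6 FPKM and replicate 3 was the lowest. The difference from ASTs was 2.50-fold in mean FPKM and 1.22 ± 0.31 on the log2 scale, 1.49 without A-iSC replicate 3 and 1.33 without AST replicate 2. P56-NPCs lay 1.36-fold below ASTs, and their samples overlapped with ASTs under upper-quartile scaling, where the log2 difference was -0.25 in place of -0.41. A-iSCs exceeded P56-NPCs 3.41-fold and P0-NPCs 7.41-fold. In A-iSCs, Dhrs3 stood above 93.3% of protein-coding genes with a value above 0.

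Cyp26b1 encodes a cytochrome P450 enzyme that oxidises retinoic acid for removal (chr6:84571414-84593908, minus strand). It measured 4.75, 2.96 and 4.13 FPKM in ASTs and 0.593, 0.676 and 0.864 FPKM in A-iSCs. It measured 0.420, 0.617 and 0.420 FPKM in P56-NPCs and 1.76, 1.78 and 1.97 FPKM in P0-NPCs. ASTs were highest and P0-NPCs second with no overlap, and A-iSCs and P56-NPCs overlapped, except under both other scalings, where A-iSCs lay above P56-NPCs in every sample. A-iSCs were 5.55-fold below ASTs, a log2 difference of -1.52 ± 0.17, which was -1.67 without AST replicate 2 and -1.58 without A-iSC replicate 3. The ratio of Aldh1a2 to Cyp26b1 was 7.92 to 12.7 in P0-NPCs, 0.454 to 0.773 in ASTs, 0.247 to 0.443 in A-iSCs and 0.178 to 0.958 in P56-NPCs, so the last group overlapped with both ASTs and A-iSCs, and in these 3 groups Aldh1a1 rather than Aldh1a2 had most of the family's level.

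Rarb, whose promoter held the repeat shown above, is known to be switched on by retinoic acid and encodes retinoic acid receptor beta (chr14:16430839-16819156, minus strand). It measured 0.362, 0.169 and 0.399 FPKM in ASTs and 0.311, 0.399 and 1.13 FPKM in A-iSCs. It measured 0.492, 0.367 and 0.173 FPKM in P56-NPCs and 0.548, 0.815 and 0.524 FPKM in P0-NPCs. All neighbouring groups overlapped, and P0-NPCs lay above ASTs in every sample, by 2.03-fold in mean FPKM. The A-iSC mean of 0.615 FPKM was set by replicate 3, and the log2 difference from ASTs was 0.27 ± 0.23 with that sample and 0.05 without it. The highest group mean was 0.629 FPKM, so Rarb did not reach the 1 FPKM that the test across genes asked for in any comparison. Rarb shares 1793 exon bases with Top2b on the opposite strand, which measured 7.86 to 21.1 FPKM in group means, and since the sources do not say that strand was used in counting, reads of the pair cannot be told apart in those bases. None of the other 8 members shares exon bases with another annotated gene.

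Set side by side, 8 of the 9 members had no overlap between A-iSCs and ASTs, 2 higher and 6 lower in A-iSCs, and 62.7% of all 14087 genes tested had none either. P56-NPCs against ASTs gave 8 of 9, 2 higher and 6 lower, beside 81.9% of all genes tested, and P0-NPCs against ASTs gave 8 of 9, 3 higher and 5 lower, beside 81.4%. Between A-iSCs and P56-NPCs 4 of 9 members had no overlap, 2 in each direction, beside 68.5%, and between A-iSCs and P0-NPCs 7 of 9, 2 higher and 5 lower, beside 70.7%. Leaving out A-iSC replicate 3, a choice made after the data were seen, again gave 8 against ASTs and 4 against P56-NPCs, and gave 9 of 9 against P0-NPCs, while the shares of all genes tested went up to 76.8%, 83.2% and 83.7% with 1 sample fewer. The members were picked on these levels, so nothing is read from these counts. The median log2 difference of the 9 members was -1.38 for A-iSCs against ASTs, -1.41 for P56-NPCs against ASTs and -0.79 for P0-NPCs against ASTs, where the medians of all tested genes were -0.06, -0.03 and -0.07. It was 0.03 for A-iSCs against P56-NPCs and -0.73 for A-iSCs against P0-NPCs, beside 0.03 and -0.02. The members whose difference changed sign with another scaling were Rarb for P56-NPCs against ASTs with library size alone (-0.04 in place of 0.03) and Aldh1a3 for A-iSCs against P56-NPCs with both (0.01 and 0.09), and both pairs of groups overlapped in any case.

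**Figure D3:**
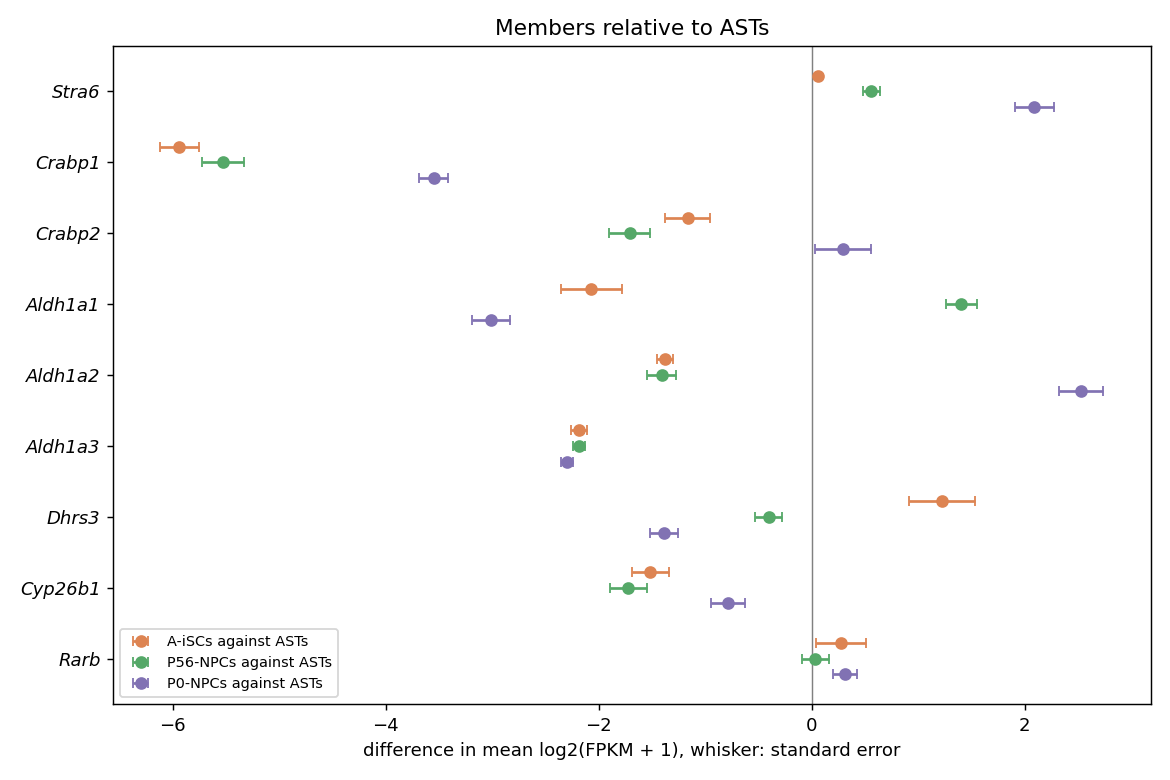
Differences of the 9 members from ASTs in mean log2(FPKM + 1) (horizontal axis), with whiskers for the standard error, for P0-NPCs, P56-NPCs and A-iSCs. These 3 comparisons share the AST samples. Aldh1a3 sits between -2.30 and -2.18 in all 3, Aldh1a1 is positive only in P56-NPCs (1.40), and Dhrs3 is positive only in A-iSCs (1.22).

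The samples also differed in markers of other cell types, and in bulk samples fewer cells of a type and less RNA per cell cannot be told apart. All 8 astrocyte markers reached 1 FPKM in every group, with sums of 143 to 161 FPKM in ASTs and 1211 to 2466 FPKM in A-iSCs. The smooth muscle and pericyte list, with 4 of 8 genes at 1 FPKM or more in ASTs and 3 of 8 in A-iSCs, summed to 1714 to 2143 FPKM and 31.7 to 64.4 FPKM, nearly all from Acta2, while Kcnj8 and Abcc9 were below 0.1 FPKM in ASTs. Rgs5 (0.311 and 0.699 FPKM), Kcnj8 (0.0156 and 0.299 FPKM) and Abcc9 (0.00689 and 0.0137 FPKM) had higher means in A-iSCs. The meningeal fibroblast list had 7 of 12 genes at 1 FPKM or more in ASTs (sums 182 to 229 FPKM) and 5 of 12 in A-iSCs (49.0 to 55.7 FPKM), with Slc6a13 and Slc22a6 below 0.1 FPKM in both. Most of that difference was Col1a1, with means of 158 FPKM in ASTs against 2.98 FPKM in A-iSCs, while Ptgds (1.93 and 17.8 FPKM), Islr (24.8 and 27.0 FPKM) and Lum (0.0374 and 0.128 FPKM) had higher means in A-iSCs. The neuron sum (88.1 to 124 FPKM in ASTs and 47.5 to 63.6 FPKM in A-iSCs, with 3 of 6 genes in both) and the endothelial sum (4.30 to 4.35 FPKM with 2 of 6 and 2.09 to 3.04 FPKM with 1 of 6) were also lower in A-iSCs, as was the choroid plexus sum (6.13 to 6.77 FPKM with 3 of 7 and 4.19 to 5.56 FPKM with 2 of 7). Most of the neuron difference was Stmn2 (means of 53.8 and 7.16 FPKM). Map2 (6.25 and 9.93 FPKM), Snap25 (0.0912 and 0.392 FPKM) and Rbfox3 (0.0268 and 0.145 FPKM) had higher means in A-iSCs. Most of the endothelial difference was Cdh5 (2.28 and 0.156 FPKM). Flt1 (0.850 and 1.22 FPKM), Pecam1 (0.0541 and 0.205 FPKM) and Cldn5 (0 and 0.0584 FPKM) were higher in A-iSCs, as was Otx2 of the choroid plexus list (1.98 and 2.59 FPKM). The smooth muscle, fibroblast, neuron, endothelial and choroid plexus sums were thus lower in A-iSCs than in ASTs, as were Crabp1, Crabp2, Aldh1a1, Aldh1a2, Aldh1a3 and Cyp26b1, while the microglia sum was higher, 96.6 to 128 FPKM with 5 of 7 genes in ASTs and 1085 to 1498 FPKM with 7 of 7 in A-iSCs, as was Dhrs3. The sums of other lists were higher in A-iSCs too, among them the astrocyte sum above, the oligodendrocyte sum (17.6 to 19.4 FPKM with 1 of 6 genes against 54.4 to 75.9 FPKM with 3 of 6), the oligodendrocyte precursor sum (79.4 to 99.5 FPKM with 2 of 5 against 122 to 143 FPKM with 5 of 5) and the ependymal sum (43.3 to 52.4 FPKM with 3 of 6 against 65.6 to 81.6 FPKM with 6 of 6). So was the striatal projection neuron sum, 2.78 to 3.93 FPKM with 1 of 7 genes in ASTs against 9.10 to 13.1 FPKM with 3 of 7 in A-iSCs. In P56-NPCs, where Dhrs3 was lower than in ASTs, the microglia sum was 435 to 459 FPKM with 6 of 7 genes. Their part in these differences was not tested.

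In P0-NPCs, where Stra6, Aldh1a2 and Crabp2 had their highest means, 10 of 12 meningeal fibroblast genes reached 1 FPKM (sums 310 to 432 FPKM), with Slc6a13 at 16.9 ± 3.3 and Slc22a6 at 6.10 ± 2.34 FPKM (SD, n = 3). The largest part of that sum was Ptgds, at 188 FPKM in the mean. In P56-NPCs, where Aldh1a2 had its lowest mean, the same list had a higher sum, 538 to 724 FPKM, of which Ptgds made up 619 FPKM in the mean, with 4 of 12 genes at 1 FPKM and Slc22a6, Foxc1 and Foxc2 below 0.1 FPKM. All 6 endothelial genes reached 1 FPKM in P0-NPCs, with sums of 75.1 to 78.1 FPKM against 4.29 to 4.78 FPKM in P56-NPCs, where 2 of 6 did. The neuron list summed to 761 to 937 FPKM with 6 of 6 genes in P0-NPCs, against 88.1 to 124 FPKM with 3 of 6 in ASTs, and the choroid plexus list to 743 to 3812 FPKM, against 6.13 to 6.77 FPKM in ASTs. In P56-NPCs, where Aldh1a1 was highest, the astrocyte sum was 2834 to 3072 FPKM and the oligodendrocyte sum 10825 to 12337 FPKM with 6 of 6 genes, against 15.2 to 18.2 FPKM with 4 of 6 in P0-NPCs. The part of these cell types in the members' levels was not tested.

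The other retinoid genes were read from lists of 54 genes by role and tested with limma, with Benjamini-Hochberg adjustment over all genes tested. In A-iSCs against ASTs, 13 of the 27 listed genes tested were higher and 6 lower, while 25.2% of all genes tested were higher and 29.6% lower. Scaling by library size alone gave 15 higher and 4 lower, and over all genes the other scalings turned the split from 3550 higher and 4165 lower to 4468 and 2871 (upper quartile) and 4563 and 2989 (library size). By role, 3 of 4 transport genes tested were higher and 1 lower, 2 of 9 synthesis genes higher and 3 lower, 2 of 4 receptors higher and 1 lower, and 6 of 9 target genes higher and 1 lower, while the 1 storage gene tested was not called. Fabp5, a fatty acid carrier that also delivers retinoic acid, rose by 1.67 ± 0.23 (adjusted p = 0.000832), by 1.83 without AST replicate 2 and by 1.88 without A-iSC replicate 3.

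**Figure D4:**
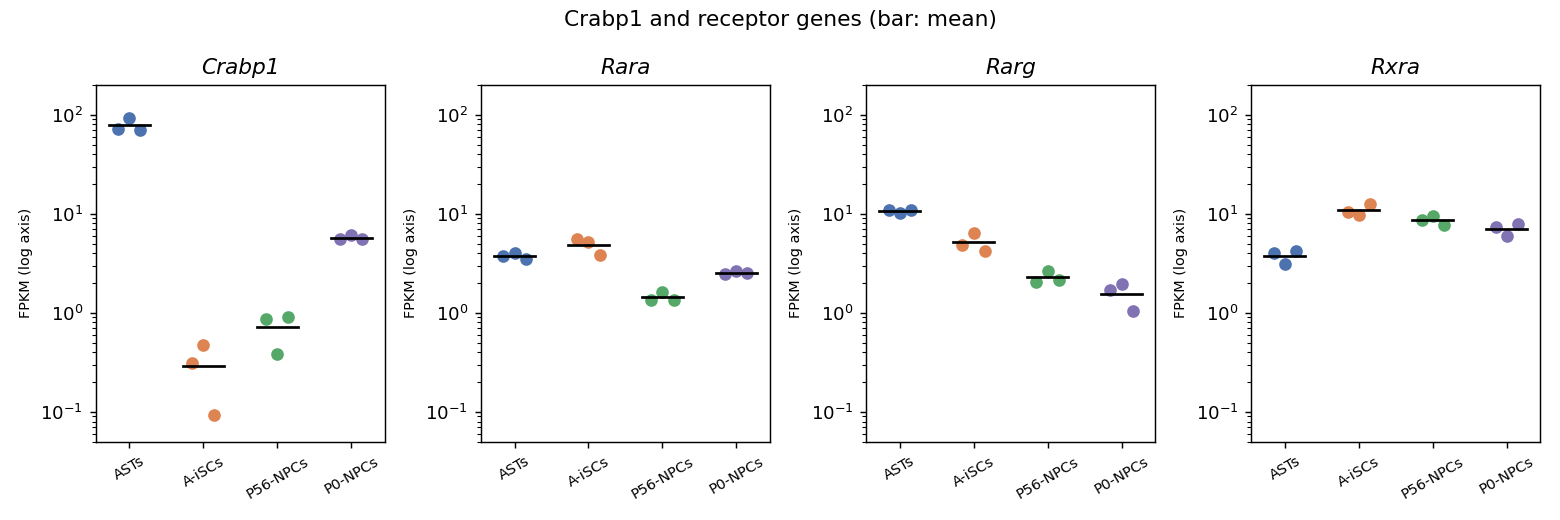
Levels of Crabp1, Rara, Rarg and Rxra in FPKM (vertical log axis, the same in all panels) in the 3 samples of each group, with bars for the means. Crabp1 goes from 78.2 FPKM in ASTs to 0.291 FPKM in A-iSCs, a wider range than that of any receptor gene shown.

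Of the synthesis genes, Rdh10, which starts the oxidation of retinol, measured 20.8, 18.8 and 20.8 FPKM in ASTs and 12.6, 10.3 and 13.3 FPKM in A-iSCs and fell by 0.70 on the log2 scale (SE 0.13, adjusted p = 0.002679). Bco2, a carotenoid cleaving enzyme, rose by 1.40 ± 0.14 in the same comparison (adjusted p = 0.0001563). Of the receptors, Rarg fell by 0.93 (SE 0.15, adjusted p = 0.001588), and Rxra and Rxrb rose by 1.31 ± 0.14 and 0.62 ± 0.10 (adjusted p = 0.0002724 and 0.001888). For Rara the fold change was 0.30 ± 0.14 on that scale (adjusted p = 0.116), and the gene passed the threshold under both other scalings, with all 4 groups in the model and without A-iSC replicate 3. Rxrg stayed below the filter at 0.488 and 0.248 FPKM. Ttr, a carrier of thyroid hormone in blood and cerebrospinal fluid, fell by 0.93 (SE 0.21, adjusted p = 0.007767) from 2.58 to 0.925 FPKM, a call that was lost with all 4 groups in the model, and Nr2f2, a nuclear receptor gene that answers to retinoic acid, fell by 0.61 (SE 0.13, adjusted p = 0.005652). The other genes for breakdown, Cyp26a1 and Cyp26c1, were below 0.1 FPKM in every group mean, and Cyp2s1 had its highest mean, 0.574 FPKM, in P56-NPCs, so Cyp26b1 was the Cyp26 gene with the highest mean in all 4 groups but lay below Cyp2s1 in P56-NPCs (0.485 FPKM).

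**Figure D5:**
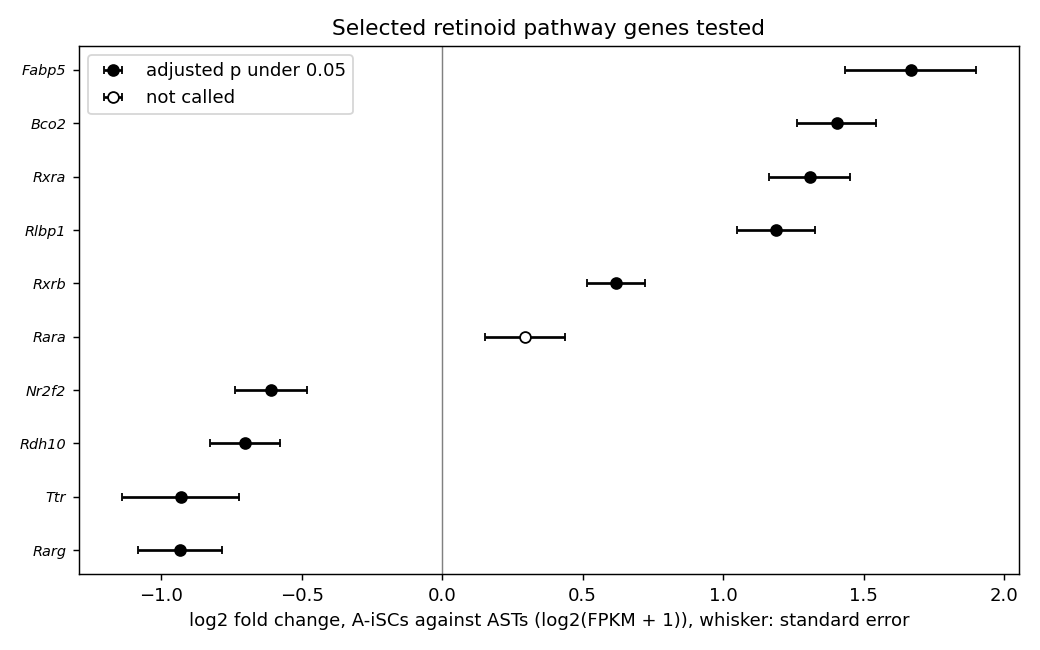
Log2 fold changes of A-iSCs against ASTs on the log2(FPKM + 1) scale (horizontal axis) for the listed retinoid genes named in the text and tested in this comparison, with whiskers for the standard error. Filled points passed an adjusted p of 0.05 and the open point, Rara, did not. Fabp5 (1.67) lies farthest to the right, and Rarg and Ttr (both -0.93) farthest to the left.

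Against the same ASTs, 15 of 30 listed genes tested were higher and 12 lower in P56-NPCs, beside 39.1% and 39.8% of all genes. With library size alone this split turned, to 12 of 29 higher and 14 lower. In P0-NPCs 12 of 28 were higher and 11 lower, beside 38.1% and 40.9%, and the split was 15 to 8 with upper-quartile scaling and 15 to 9 with library size alone. Over all genes, P56-NPCs had 5924 higher and 6032 lower calls and 4569 and 7559 with library size alone, and P0-NPCs had 5713 and 6146 and then 7608 and 4257 with the upper quartile and 7106 and 4860 with library size alone. Rarg fell by 1.83 (SE 0.09, adjusted p = 1.389e-06) in P56-NPCs and by 2.20 (SE 0.14, adjusted p = 2.681e-06) in P0-NPCs. Rlbp1, a retinaldehyde carrier of the eye and of glia, rose by 2.60 ± 0.07 (adjusted p = 9.722e-08) and 3.31 ± 0.08 (adjusted p = 2.596e-08). Rara fell in both, by 0.96 (SE 0.09, adjusted p = 3.749e-05) and 0.43 (SE 0.08, adjusted p = 0.001876), and the call for P0-NPCs was lost under both other scalings. Ttr measured 2077, 1452 and 3120 FPKM in P56-NPCs and 3747, 725 and 2265 FPKM in P0-NPCs beside at most 2.95 FPKM in ASTs. The choroid plexus list, which holds Ttr, had 7 of 7 genes at 1 FPKM or more in P56-NPCs and 5 of 7 in P0-NPCs against 3 of 7 in ASTs, and its part in the level of Ttr was not tested.

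Between A-iSCs and P56-NPCs, 14 of 30 listed genes tested were higher in A-iSCs and 11 lower, beside 30.1% and 30.9% of all genes, and 19 were higher and 7 lower with scaling by library size alone, which moved the split over all genes from 4532 and 4643 to 8329 and 2857. Between A-iSCs and P0-NPCs, 17 of 29 were higher and 8 lower, beside 31.5% and 33.6%. The split was 14 to 9 with upper-quartile scaling and 15 to 8 with library size alone. Upper-quartile scaling moved the split over all genes from 4773 and 5103 to 3935 and 6283. Rara and Rarg were higher in A-iSCs than in either NPC group, by 0.73 to 1.27. Rxrb was lower by 0.43 (SE 0.09, adjusted p = 0.00601) than in P56-NPCs, although scaling by library size alone turned this to 0.09, and lower by 0.47 (SE 0.11, adjusted p = 0.00541) than in P0-NPCs. Rdh10 was higher than in P56-NPCs by 0.80 ± 0.12 (adjusted p = 0.0008173), and by 0.46 ± 0.17 (adjusted p = 0.04272) than in P0-NPCs, a call lost under both other scalings (0.28 and 0.39), without A-iSC replicate 1 or 3 or P0-NPC replicate 2 or 3 (0.33 to 0.43), and with no filter, where the difference itself was unchanged at 0.46.

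To place the members among all genes, the protein-coding genes with the most similar levels over the 12 samples, up to 3 each, were listed for each of the 8 members that reached 1 FPKM, from 13659 genes and by Pearson's r of log2(FPKM + 1). The 12 samples fall into 4 groups, so r mostly reflects the group means, and it is given as a description. Crabp1 was closest to Rab3ip (r = 0.995), Bex3 and Gstm2, which like it were highest in ASTs and second in P0-NPCs. Cyp26b1 was closest to Bub1, a kinase of the mitotic checkpoint (r = 0.989), Arsi and Flt4, and of the members to Crabp1 (r = 0.945). Aldh1a3 was closest to Pax2, a transcription factor gene of the developing eye and kidney (r = 0.997), Gask1b and Ereg, whose mean was 9.36 FPKM in ASTs against 0.179 FPKM in A-iSCs.

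Dhrs3 was closest to Tcirg1, a subunit gene of the vacuolar proton pump (r = 0.992), Rasa4 and Ctsa, the gene of lysosomal cathepsin A, whose mean was 49.0 FPKM in ASTs against 157 FPKM in A-iSCs. Aldh1a1 was closest to Aktip (r = 0.990), Adk and Cpox, which were highest in P56-NPCs. Aldh1a2 was closest to Ilf2 (r = 0.991) and C1qtnf2, and Stra6 to Ccdc192 (r = 0.995), Ntsr1 and Lyve1, a hyaluronan receptor gene, all highest in P0-NPCs. Crabp2 was closest to Tubb2a, a beta-tubulin gene of neurons (r = 0.979), Dnm1l and Sh3yl1. Among the members themselves, the pair with the highest r after Crabp1 and Cyp26b1 was Crabp1 and Aldh1a3 (r = 0.900), Crabp2 and Aldh1a2 had r = 0.859, and Stra6 and Aldh1a2 r = 0.847, while Dhrs3 ran opposite to Stra6 (r = -0.810).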

How the data were processed

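Bulk RNA was sequenced from 12 samples in 4 groups of 3. The authors made libraries with a NEBNext Ultra kit, read both ends of each fragment on an Illumina HiSeq instrument and removed low-quality reads. They deposited 1 table of FPKM values for 55862 genes, with gene positions and lengths. The submitters' processing notes list Bowtie 0.12.2 and build mm8, while 54899 of 55154 gene identifiers shared with GENCODE M21 have the same position there, so positions are on GRCm38. The annotation release and the use of strand are not given in the sources used here. Each FPKM value times gene length was a whole multiple of 1 step per sample within a tolerance of 0.05, for 100% of values, which gave the fragments behind it, 17077780 to 24452419 per sample.

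Groups were taken from the labels and compared 2 at a time in 5 comparisons. Members are described by FPKM and by differences of mean log2(FPKM + 1) with standard errors from the samples of both groups. Other genes were tested with limma 3.58.1 in R 4.3.3 (lmFit and eBayes with a trend) on log2(FPKM + 1), over genes with a mean of at least 1 FPKM in at least 1 of the 2 groups, with calls at an adjusted p (Benjamini-Hochberg) under 0.05. The fit was tested on simulated data. DESeq2, the tool of the authors' methods, was not used. Alternatives were upper-quartile scaling, library size alone, no filter, a pseudocount of 0.1, a joint model of all 4 groups, a block for replicate number, limma-voom on the recovered fragments (3484 genes higher and 4160 lower in A-iSCs against ASTs) and leaving out each sample. Chosen after the data were seen was the count of members without overlap when A-iSC replicate 3 is left out. The members, the pathway lists and the marker lists were chosen with earlier results of these data known. Named were every member, the 3 genes most like each member, the listed genes called with the largest and smallest fold changes (up to 4 each per comparison, of which those that add to the text are given), and Rara, Rarg, Rxra, Rxrb, Rxrg and Rdh10. Some genes that this rule names are not reported here. Cyp26a1, Cyp26c1 and Cyp2s1, in the closing section Rbp3, Cdx1 and Adh1, and some marker genes, were named after their values were seen. Sequences came from RefSeq on GRCm38.p6. Python 3.11.15 with numpy 2.4.6, pandas 2.3.3 and matplotlib 3.10.9 was used for the other steps. No column of sample values was left out.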

Additional observations from a re-analysis of the deposited data

How the results depend on the processing

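For the number of other retinoid genes called, 64 of 65 alternative counts over the 5 comparisons stayed within 1.5 times the value reported. The exception was P0-NPCs against ASTs without the filter on low values, with 35 calls in place of 23, from 52 genes tested in place of 28. Leaving out 1 sample at a time gave 16 to 21 calls for A-iSCs against ASTs. The fit with a replicate block gave 17 calls in place of 19 there, and 26, 24, 23 and 24 in the other comparisons. Same-numbered samples of A-iSCs and ASTs had deviations correlated at -0.38, 0.34 and 0.43, and a shared number was not taken as a pair. Of the named listed genes, Rxrb in A-iSCs against P56-NPCs turned from -0.43 to 0.0919 with scaling by library size alone, and the cause was not tested. For the members in A-iSCs against ASTs, 70 of 81 alternative differences moved by less than the spread between samples, 11 moved further and 0 changed sign. A pseudocount of 0.1, which gives low values more weight on the log scale, moved Crabp1 from -5.94 to -7.77, Aldh1a2 from -1.38 to -2.85, Aldh1a3 from -2.18 to -3.91, Crabp2 from -1.16 to -1.83, Cyp26b1 from -1.52 to -2.31, Stra6 from 0.06 to 0.37 and Rarb from 0.27 to 0.68. Depth limits the members near the floor, among them Stra6 in ASTs and A-iSCs, Crabp1 in A-iSCs, and Crabp2 and Aldh1a2 in P56-NPCs.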

Other observations

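Among the listed genes that the comparisons above do not name, those that differed widely between samples of the same group included Rbp3, Cdx1 and Adh1, which were picked after their values were seen. Rbp3, the retinoid carrier between photoreceptors and pigment epithelium, measured 3.29 and 2.64 FPKM in P0-NPC replicates 1 and 2, from 398 and 407 fragments, and 0.00686 FPKM in replicate 3, from 1 fragment. It was listed at 0 in all 6 samples of ASTs and A-iSCs. Cdx1, a homeobox gene that answers to retinoic acid in the embryo, measured 2.64 FPKM in P56-NPC replicate 3, from 76 fragments, and was listed at 0 in the other 2 P56-NPC samples. Adh1, an alcohol dehydrogenase gene, measured 2.07 FPKM in the same sample, from 76 fragments, and 0.0774 and 0.0279 FPKM in the other 2, from 3 and 1 fragments.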
